A study of Homo sapiens with 12 samples.

Results

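MDA-MB231 cells, an established triple-negative breast cancer line, were made to overexpress either Flag-tagged TDP43 or Flag-tagged SRSF3, and the input RNA of both was sequenced alongside RNA pulled down with Flag antibodies. The comparison described here sets the Flag-TDP43 input against the Flag-SRSF3 input. It covers every gene at 1 FPKM (fragments per kilobase of gene, scaled to sequencing depth) or more in either input, which was 10305 of 60675 genes. Of these, 8896 reached 1 FPKM in both inputs, 782 in the Flag-TDP43 input alone and 627 in the Flag-SRSF3 input alone. The lowest member stood at 1.00 FPKM in its higher input and the highest gene left out at 0.9998 FPKM.

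Each side had 1 library, so no difference between the inputs has a replicate check and no p-value is given for one. An input of cells without a tagged protein is not analysed here, so a gene that differed cannot be assigned to one protein or the other. The depth inferred from the steps of the deposited FPKM was about 28400000 reads in the Flag-TDP43 input and 28200000 reads in the Flag-SRSF3 input. The input values were set beside 6 RNA-seq libraries of the same cell line, 2 each with a stable lentiviral control hairpin (sh_control), a hairpin against TDP43 (sh_TDP43) or a hairpin against SRSF3 (sh_SRSF3), with 34457445 to 38326930 counted reads. The labels name 1 hairpin a target and do not say whether the 2 libraries of a group came from separate cultures, so their p-values measure a spread that may be technical.

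TDP43, encoded by TARDBP, is a mostly nuclear RNA-binding protein that prefers UG-rich sequence, keeps cryptic exons out of mRNAs and lowers its own mRNA when it is abundant. SRSF3 is the smallest of the serine- and arginine-rich (SR) splicing factors, shuttles between nucleus and cytoplasm, and limits its own level through an exon whose inclusion marks the mRNA for decay. Both take part in splicing, export and decay of many transcripts, and both have been studied in breast cancer cells.

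TARDBP (ENSG00000120948, chromosome 1, 11012344 to 11026420, plus strand, in coordinates that match GRCh38) was at 14.2 FPKM in the Flag-TDP43 input and at 1.76 FPKM in the Flag-SRSF3 input. A second deposited table gives values for the same libraries in a unit that neither the labels nor the file headers state. They were treated here as a normalised signal. In that table TARDBP was at 82.1 and 14.8. The difference was 2.46 on the log2(FPKM + 1) scale and 2.39 on the log2(signal + 1) scale. SRSF3 (ENSG00000112081, chromosome 6, 36594353 to 36605600) was at 29.3 FPKM in the Flag-TDP43 input and at 54.9 FPKM in the Flag-SRSF3 input, with a signal of 137 and 349. Its difference was -0.89 in FPKM and -1.34 in the second table. Each tagged gene was higher in the input that carries it. Reads of the tagged and of the endogenous copy are summed in these values.

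Identity markers were checked next. VIM, a mesenchymal filament protein, was at 417 FPKM and 422 FPKM. EPCAM, an epithelial adhesion protein, was at 1.27 and 1.69 FPKM, and the receptor gene ERBB2 at 3.01 and 3.26 FPKM. The receptor genes ESR1 and PGR were listed at 0 in both inputs. None of the 10 fibroblast markers and none of the 10 embryonic kidney packaging cell markers reached 1 FPKM, and 2 of the 12 haematopoietic markers did. The summed FPKM of the luminal breast markers was 186 in the Flag-TDP43 input and 234 in the Flag-SRSF3 input, with 9 of 16 at 1 FPKM or more, and their summed signal was 560.9 and 560.5. The keratin gene KRT18 of that list was at 47.9 and 95.6 FPKM but at a signal of 164 and 166.

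The 2 deposited tables often gave a gene different input differences. Across members the Spearman correlation of the 2 inputs with each other was 0.893 in FPKM and 0.965 in the second table, and that of the 2 tables' input differences was 0.50. In FPKM, 927 members (9.0%) were past 1.5-fold higher in the Flag-TDP43 input and 866 (8.40%) past 1.5-fold lower. The second table put 465 (4.51%) higher and 531 (5.15%) lower. Past 2-fold there were 409 (3.97%) higher and 380 (3.69%) lower in FPKM, and 107 (1.04%) higher and 142 (1.38%) lower in the second table. Of the 1793 genes past 1.5-fold in FPKM, 1258 had the same sign in the second table, 423 were past 1.5-fold the same way and 39 were past it the opposite way. RPS24, a protein of the small ribosomal subunit, shows how far apart the tables can be: it was at 92.3 and 9.36 FPKM but at a signal of 1237 and 1439. NGFRAP1, a cell death associated adaptor, was at 103 and 1.38 FPKM against a signal of 138 and 140. ANXA3, an annexin, was at 0.370 and 30.5 FPKM against a signal of 140 and 137.

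The ratio of signal to FPKM had a median of 2.375 in the Flag-TDP43 input and 2.422 in the Flag-SRSF3 input. Its commonest values were 1.203 and 1.218, with 707 of 10267 and 685 of 10251 members within 1% of them. Among the 1370 genes past 1.5-fold in FPKM alone, the median of that ratio was 2.42 in the input where FPKM was higher and 7.0 in the input where FPKM was lower. Among the 423 genes past 1.5-fold in both tables these medians were 1.4 and 1.79. The 15 highest and 15 lowest FPKM differences among genes at 5 FPKM or more, with the same sign in both tables, are mostly of the first kind: 5 of the highest and 3 of the lowest were past 1.5-fold in the second table too. What follows therefore leads with the 186 members (1.80%) that were past 1.5-fold higher in the Flag-TDP43 input in both tables and the 237 (2.30%) that were past 1.5-fold lower in both, a rule added after the values were seen.

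**Figure D1:**
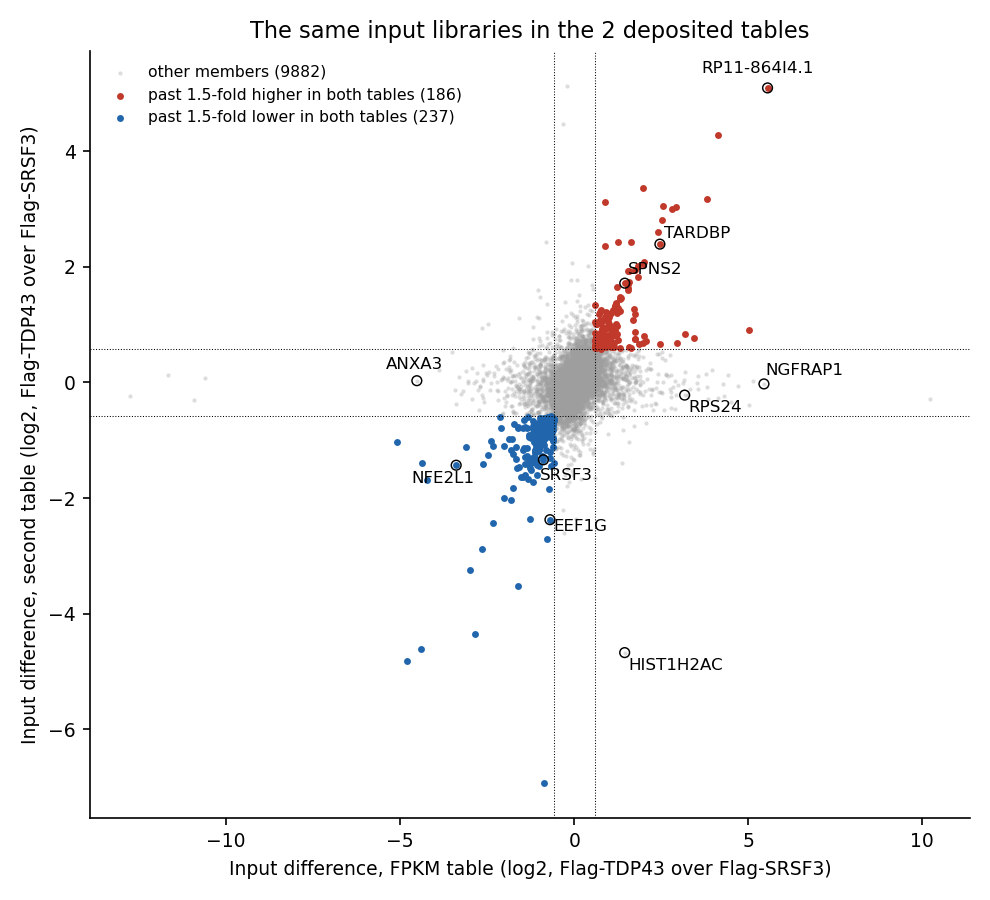
Input difference of each of the 10305 genes in the FPKM table (horizontal axis) and in the second table (vertical axis), both as log2 of the Flag-TDP43 over the Flag-SRSF3 input; dotted lines mark 1.5-fold. The 186 genes higher in both tables (red) include TARDBP, the 237 lower in both (blue) include SRSF3, and RPS24, NGFRAP1 and ANXA3 are far from 0 in the FPKM table alone.

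The genes named from the 186 higher ones were chosen after their values were seen, and they stand for no theme of the set. SPNS2, the transporter that exports sphingosine-1-phosphate, was at 7.11 and 1.97 FPKM, with a signal of 17.3 and 4.56. CST4, a secreted cystatin, was at 98.7 and 51.3 FPKM, with a signal of 133 and 67.6. LOXL4, a lysyl oxidase that cross-links collagen, was at 52.5 and 29.9 FPKM. COL18A1, a basement membrane collagen, was at 15.4 and 9.34 FPKM, and IL4R, a receptor chain for interleukins 4 and 13, at 5.16 and 2.15 FPKM. On the log2 scale CST4 differed by 0.93 in FPKM and 0.97 in the second table, LOXL4 by 0.79 and 0.82, COL18A1 by 0.66 and 0.73, and IL4R by 0.96 and 0.97, so both tables gave nearly the same size.

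PLEC, the plectin that links intermediate filaments to the membrane, was at 53.1 and 27.3 FPKM with a signal of 107 and 67.2. AHNAK, a very large scaffold protein, was at 14.3 and 8.24 FPKM with a signal of 65.4 and 39.4, and SVIL, the actin-binding supervillin, at 6.33 and 3.44 FPKM. HDLBP, a KH-domain RNA-binding protein of the endoplasmic reticulum, was at 26.1 and 12.9 FPKM. SQSTM1, the p62 autophagy receptor, was at 32.0 and 16.2 FPKM. TOLLIP, an adaptor that dampens Toll-like receptor signalling, was at 7.73 and 2.85 FPKM, the GTPase gene RRAS at 18.0 and 10.3, COPS7A of the COP9 signalosome at 9.24 and 2.05, and the mitochondrial ribosomal gene MRPL30 at 6.02 and 1.08.

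Genes from the 237 lower ones were chosen in the same way. NFE2L1, a transcription factor that induces proteasome genes, was at 0.167 FPKM in the Flag-TDP43 input and 11.3 FPKM in the Flag-SRSF3 input, with a signal of 22.3 and 61.9. GABARAPL1, an autophagosome protein, was at 0.0619 and 5.56 FPKM with a signal of 3.83 and 11.8. For both genes the 2 tables put the Flag-TDP43 input lower, but the FPKM difference was the larger one, -3.39 against -1.43 for NFE2L1 and -2.63 against -1.40 for GABARAPL1.

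GNA11, a G protein alpha subunit, was at 5.86 and 20.9 FPKM. CTGF, a matricellular target of YAP and TGF-beta, was at 48.1 and 75.9 FPKM with a signal of 58.7 and 96.4, and EDN1, the endothelin precursor, at 3.71 and 7.64 FPKM with a signal of 5.79 and 12.1. KISS1, which codes for the metastasis suppressor kisspeptin, was at 31.9 and 51.8 FPKM with a signal of 59.9 and 104. CD99, a surface glycoprotein, was at 7.95 and 19.3 FPKM, ADM, the hypoxia-inducible adrenomedullin, at 9.32 and 16.5, and DKC1, the pseudouridine synthase of H/ACA particles, at 9.96 and 16.2. SNHG1, a host transcript of small nucleolar RNAs, was at 3.03 and 7.58 FPKM with a signal of 41.3 and 87.6.

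In bulk RNA, fewer cells in a state and less RNA per cell cannot be told apart, here and below. The mitochondrially encoded mRNAs were a group that differed in 1 direction throughout. All 13 were below 0 in both tables, with a median of -0.62 in FPKM and -0.64 in the second table, and 8 of the 13 were past 1.5-fold lower in both. Across all members 35.4% were below 0 in both tables and the medians were 0.01 and 0.00. MT-CO1 and MT-CO2, core subunits of cytochrome c oxidase, were at 265 and 336 FPKM and at 86.2 and 156 FPKM. MT-ND3, a complex I subunit, was at 17.6 and 38.5 FPKM, and MT-ND2 at 15.5 and 30.0 FPKM. MT-CYB, the mitochondrial subunit of complex III, was at 30.3 and 47.2 FPKM. MT-ND6, the only one of the 13 encoded on the light strand, showed the smallest difference, 14.8 against 16.0 FPKM. The whole list summed to 616 FPKM in the Flag-TDP43 input and 902 FPKM in the Flag-SRSF3 input.

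The nuclear-encoded subunits of the respiratory chain did not share the size of that difference. Of 57 such genes, 3 were past 1.5-fold higher and 4 past 1.5-fold lower in FPKM, and none was past it in both tables. Their median was -0.11 in each table, with 45 below 0 in the second table. The 79 cytosolic ribosomal protein genes had medians of -0.10 and -0.12, with 64 below 0 in the second table. RPS23, of the small subunit, was the 1 ribosomal protein gene past 1.5-fold in both tables, at 72.0 and 125 FPKM.

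Replication-dependent histone mRNAs, which end in a stem-loop and mostly lack a poly(A) tail, lay on the same side in the second table. All 42 members were below 0 there, with a median of -0.36, although 0 of the 42 were past 1.5-fold in both tables. In FPKM 35 of 42 were below 0 (median -0.31). The core histone gene HIST1H3B was at 1046 and 1383 FPKM with a signal of 1203 and 1623, and HIST1H1C, a linker histone, at 951 and 1237 FPKM with a signal of 1120 and 1487. Near-identical copies stood apart: HIST2H3A was at 264 and 7.23 FPKM against a signal of 292 and 383, and HIST1H2AC was at 79.6 and 28.5 FPKM against a signal of 9.55 and 268. Reads of such copies can be split in different ways by a quantifier, so the values of a single histone copy are uncertain.

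Histone mRNAs took 2.20% of the summed signal in the Flag-TDP43 input and 3.10% in the Flag-SRSF3 input, against 0.0055% to 0.016% of the counted reads in the 6 hairpin libraries. Mitochondrially encoded mRNAs took 0.0950% and 0.151% of the summed signal and 3.51% to 4.68% of the counted reads. Signal and counts are not on 1 scale, and the difference in share between the 2 kinds of library was not tested.

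The interferon response list was on the other side. It holds antiviral effectors, RNA sensors and the transcription factors that induce them. Of its 40 genes 33 were members. By the second table, 27 of 33 were above 0 with a median of 0.34, and in FPKM 24 of 33 were (median 0.26), whereas 49.4% of all members were above 0 in the second table. Past 1.5-fold in both tables were 3 genes, all of them higher: OASL, DHX58 and IFIH1. Without these 3 the medians were 0.30 and 0.24.

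ISG15, a ubiquitin-like protein and the most abundant of the list, was at 394 FPKM in the Flag-TDP43 input and 260 FPKM in the Flag-SRSF3 input, with a signal of 632 and 429. IFIT3, which binds viral RNA complexes, was at 90.8 and 51.3 FPKM with a signal of 130 and 101. OASL, an oligoadenylate synthetase-like protein, was at 31.2 and 18.3 FPKM with a signal of 48.2 and 31.3. The 3 genes were higher in the Flag-TDP43 input in both tables. DDX60, a helicase that helps RNA sensing, was at 16.3 and 9.21 FPKM, and the helicase gene DHX58 at 5.45 and 2.76 FPKM with a signal of 13.7 and 8.46. IFIH1, the sensor MDA5, was at 2.63 and 0.0743 FPKM with a signal of 5.20 and 2.69. IFITM3, a membrane protein that blocks virus entry, went the other way, at 25.4 and 29.9 FPKM with a signal of 40.4 and 65.2.

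The promoters of the list's genes were searched for a sequence motif, which most but not all of those found hold. All those printed below hold it. The 300 bases around the start of transcription are printed for the most abundant member, for the member with the largest FPKM difference and for DDX60, which had the largest difference of the list between sh_TDP43 and sh_SRSF3. They come from RefSeq on GRCh38.p14, at chr1:1013247-1013546 (plus strand, ISG15), chr2:162318635-162318934 (minus strand, IFIH1) and chr4:168318703-168319002 (minus strand, DDX60), 5′ to 3′. Capitals mark every match, on either strand, to GAAANNGAAA, the core of the interferon-stimulated response element, which reads TTTCNNTTTC on the other strand. Matches that overlap run together.
ISG15: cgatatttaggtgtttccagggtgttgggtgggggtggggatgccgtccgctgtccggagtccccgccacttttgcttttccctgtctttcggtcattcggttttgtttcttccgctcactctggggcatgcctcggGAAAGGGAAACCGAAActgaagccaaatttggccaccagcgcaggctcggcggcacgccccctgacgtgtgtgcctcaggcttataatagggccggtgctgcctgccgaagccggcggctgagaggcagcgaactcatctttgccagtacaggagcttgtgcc
IFIH1: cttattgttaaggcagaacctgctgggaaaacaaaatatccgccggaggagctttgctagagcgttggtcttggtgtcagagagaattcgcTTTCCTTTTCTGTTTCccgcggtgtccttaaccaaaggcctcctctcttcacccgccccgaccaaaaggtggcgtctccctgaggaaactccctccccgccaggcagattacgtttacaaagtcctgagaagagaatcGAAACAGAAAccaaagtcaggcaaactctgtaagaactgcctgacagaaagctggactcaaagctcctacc
DDX60: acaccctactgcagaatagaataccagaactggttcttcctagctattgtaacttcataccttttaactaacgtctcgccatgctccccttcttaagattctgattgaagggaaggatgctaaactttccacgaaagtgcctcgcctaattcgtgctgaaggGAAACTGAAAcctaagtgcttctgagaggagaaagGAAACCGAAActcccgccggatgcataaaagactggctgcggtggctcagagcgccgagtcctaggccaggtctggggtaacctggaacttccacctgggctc
The ISG15 and DDX60 windows hold 2 matches each and the IFIH1 window 3. Of all 35116 promoters of that length in the table, 3.57% hold a match. Counted by gene symbol, 4.38% of 27305 symbols hold a match in at least 1 promoter. Promoters were found by symbol for 25 of the 33 interferon genes, and 18 of the 25, counted by symbol, hold a match. The list was chosen for its response to interferon, so this share describes the list and not the inputs. Between the inputs the 18 genes with a match had a second-table median of 0.21, with 13 above 0, and the 7 without one had a median of 0.29, with 6 above 0. Of the genes past 1.5-fold in both tables, 5 of the 78 higher ones and 2 of the 67 lower ones with a promoter in the table hold a match, against 3.80% of members with one.

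**Figure D2:**
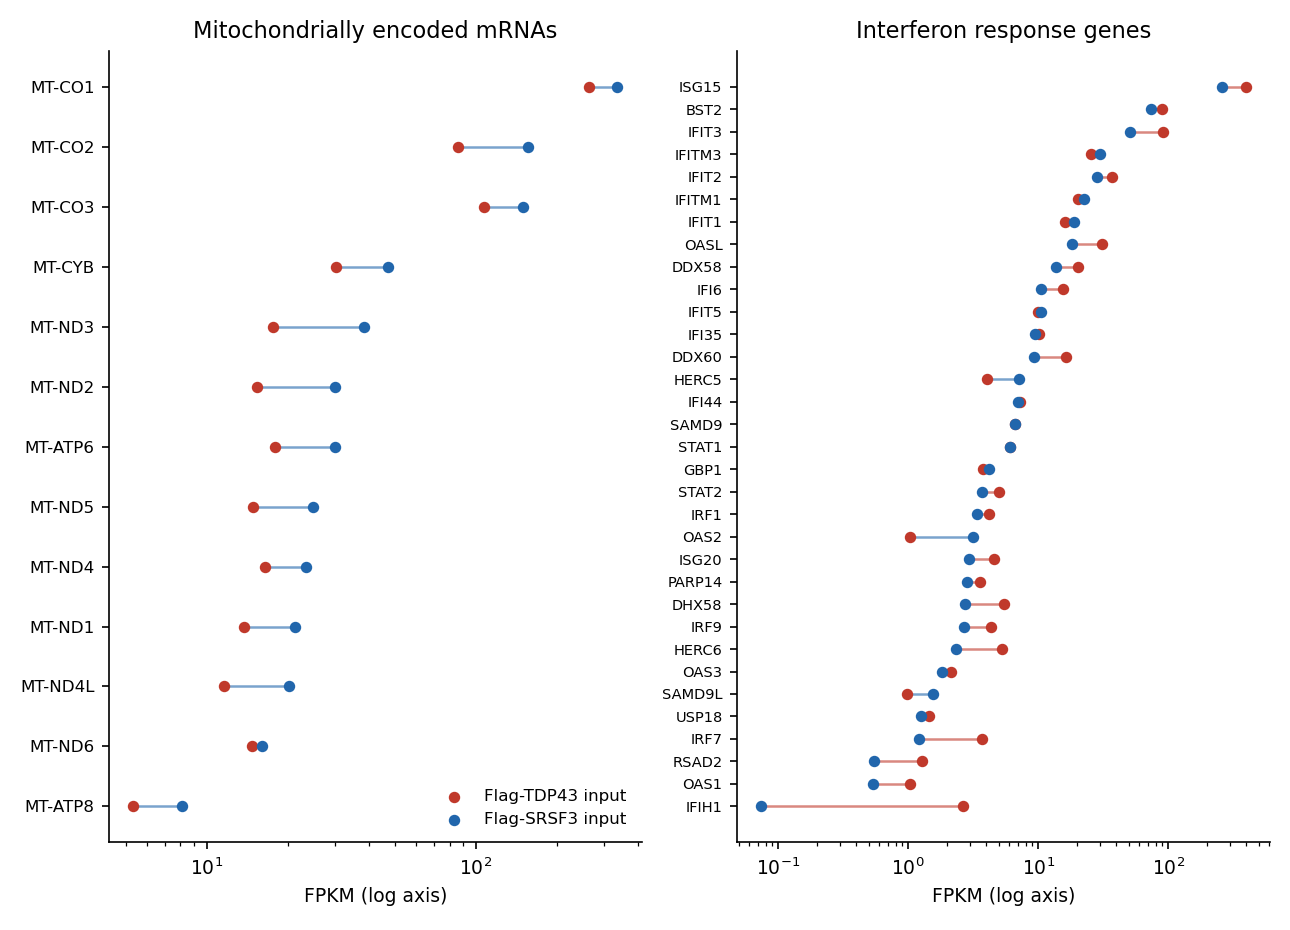
FPKM (log axis) of the 13 mitochondrially encoded mRNAs and the 33 interferon response genes in the Flag-TDP43 input (red) and the Flag-SRSF3 input (blue), 1 library each, with a line joining the 2 values of a gene. All 13 mitochondrial points are lower in the Flag-TDP43 input, and 24 of the 33 interferon genes are higher in it.

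Genes of NF-kB signalling and cytokines shifted by a similar amount. Of 18 members 15 were above 0 in the second table (median 0.40) and 13 in FPKM (median 0.25), and 2 were past 1.5-fold higher in both. ICAM1, an adhesion molecule for leukocytes, was at 14.9 and 7.27 FPKM with a signal of 20.8 and 12.8. IL24, a cytokine of the interleukin 10 family, was at 5.63 and 3.20 FPKM with a signal of 15.3 and 7.10. IL6 was at 7.26 and 4.08 FPKM and the growth factor gene CSF2 at 35.2 and 26.4 FPKM. Of genes in none of the lists, chosen after their values were seen, PSMB10, an immunoproteasome subunit, was at 20.8 and 1.02 FPKM with a signal of 51.6 and 29.9. SAA1, an acute phase protein, was at 27.1 and 17.1 FPKM, and RARRES3, a phospholipase induced by retinoids and interferon, at 30.8 and 17.1 FPKM.

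Most DNA replication genes lay below 0. All 32 listed genes were members, and 25 of 32 were below 0 in the second table (median -0.22), against 50.6% of all members, and 26 in FPKM (median -0.21). Past 1.5-fold lower in both tables were 3: RFC2 of the clamp loader at 10.2 and 19.5 FPKM, POLA1, the catalytic subunit of the primase-polymerase, at 3.32 and 6.58 FPKM, and GINS4 of the replicative helicase at 1.71 and 3.15 FPKM. PCNA, the sliding clamp, was at 95.2 and 104 FPKM, and MCM2 of the helicase ring at 19.6 and 21.2 FPKM. RRM2, a subunit of ribonucleotide reductase, was at 9.02 and 21.7 FPKM, but its signal of 21.8 and 26.0 put the difference at -0.24. MCM5 was at 11.2 and 12.7 FPKM with a signal of 40.7 and 32.0, so its 2 tables had opposite signs.

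Among the listed splicing factors, the tagged pair alone was past 1.5-fold in both tables. Of 13 SR protein genes with 1 FPKM or more, SRSF3 was the 1 past 1.5-fold in both tables, and the list's medians were -0.26 in FPKM and -0.12 in the second table. SRSF1 was at 0.913 and 6.93 FPKM with a signal of 58.9 and 85.6, and SRSF2 at 15.5 and 33.6 FPKM with a signal of 26.5 and 38.7. Of 30 hnRNP and related genes, TARDBP was the 1 past 1.5-fold in both tables, and the medians were -0.05 and -0.13. HNRNPA2B1, an abundant hnRNP, was at 4.66 and 20.5 FPKM with a signal of 81.2 and 94.2. The 14 expressed genes of a list of known TDP43 splice targets had medians of 0.10 and 0.10, with none past 1.5-fold in both tables. PARD3, a scaffold of cell polarity, was at 5.12 and 5.07 FPKM with a signal of 15.2 and 14.0. NUMB, an adaptor that restrains Notch, was at 0.609 and 1.42 FPKM with a signal of 12.4 and 11.3, opposite in sign between the tables.

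**Figure D3:**
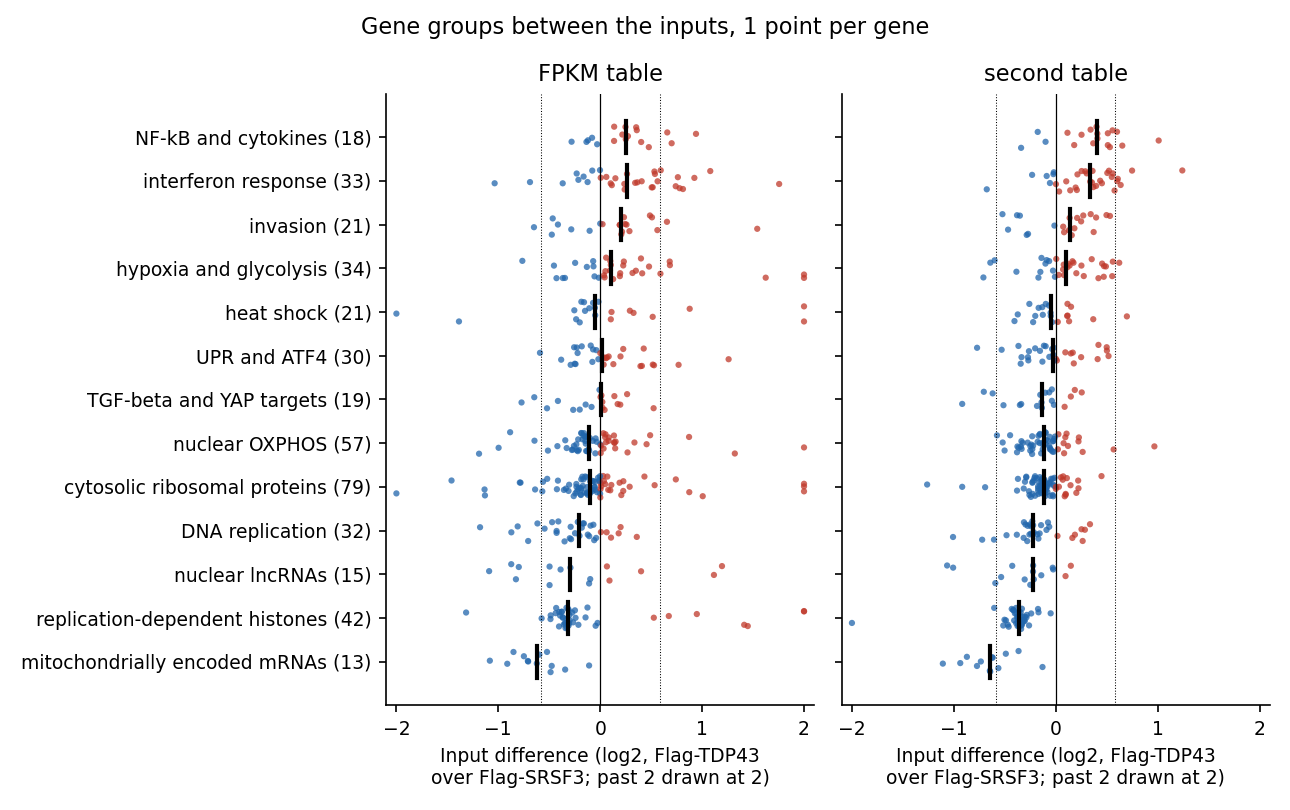
Input difference (log2, Flag-TDP43 over Flag-SRSF3) of each gene of 13 lists in the FPKM table (left) and the second table (right), with the list's median as a black bar, dotted lines at 1.5-fold and the number of gene entries in brackets. The median of the mitochondrially encoded list is -0.62 and -0.64, and those of the interferon and NF-kB lists are 0.26 to 0.40 in the 2 tables.

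Most other lists stood near 0. Medians in the second table were -0.03 for 30 genes of the unfolded protein response and ATF4, -0.05 for 21 heat shock genes, -0.02 for 30 genes of G2/M, 0.10 for 34 hypoxia and glycolysis genes and -0.04 for 23 genes of cholesterol synthesis, with at most 1 gene of each list past 1.5-fold in both tables. The invasion list of proteases and integrins had medians of 0.21 and 0.14 over 21 genes, with PLAUR, the urokinase receptor, at 24.8 and 15.4 FPKM and its ligand PLAU at 79.0 and 124 FPKM. Mesenchymal genes had medians of 0.11 and 0.02, with FN1, fibronectin, at 15.6 and 10.8 FPKM and the receptor kinase AXL at 146 and 251 FPKM but a signal of 354 and 380. Of 19 TGF-beta and YAP targets, 15 were below 0 in the second table (median -0.14), against 9 in FPKM (median 0.00). CTGF was the 1 past 1.5-fold in both.

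The input difference rose slightly with exon length, and very short genes and genes outside the count table were over-represented in both directions. With the genes divided by exon length into 5 groups of nearly equal size, the second-table median went from -0.05 in the shortest through -0.03, 0.00 and 0.03 to 0.07 in the longest. The shortest group held 35 genes higher and 56 lower in both tables, and the longest 18 higher and 5 lower. Genes whose whole span is under 300 bases made up 19.4% of the higher genes and 32.1% of the lower genes, against 2.93% of members. Genes outside the count table, which lists protein-coding and long intergenic transcripts, made up 39.8% of the higher genes and 53.2% of the lower ones, against 10.2% of members. The part of length in the group differences was not tested.

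The knockdown libraries set cells with a hairpin against TDP43 beside cells with a hairpin against SRSF3, which is near to the reverse of the inputs. TARDBP stood at 168 and 125 CPM (counts scaled to library size by TMM) in the sh_control libraries, at 34.4 and 31.3 in sh_TDP43 and at 108 and 102 in sh_SRSF3. It was lower in sh_TDP43 than in sh_SRSF3 by a log2 fold change of -1.67 (SE 0.13, edgeR quasi-likelihood adjusted p = 7.28e-08). SRSF3 stood at 459 and 404 CPM in sh_control, at 188 and 180 in sh_TDP43 and at 64.1 and 61.7 in sh_SRSF3. It was higher in sh_TDP43 than in sh_SRSF3 by 1.55 (SE 0.10, edgeR adjusted p = 1.15e-08). Both genes therefore differed in opposite directions in the inputs and in the knockdowns, and the groups did not overlap. Each hairpin group also had less mRNA of the other gene than sh_control, so the comparison is not an exact reverse of the inputs.

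Of the 10305 members 9127 were tested in sh_TDP43 against sh_SRSF3, of which 30.0% were called higher and 42.0% lower at an edgeR adjusted p under 0.05. Of the 100 tested genes higher in the Flag-TDP43 input in both tables, 45 were called higher and 30 lower, with a median log2 fold change of 0.29 against -0.14 over all members tested. Of the 92 tested genes lower in that input, 24 were called higher and 32 lower, with a median of -0.09. In all, 77 genes past 1.5-fold in both tables were called in the same direction as between the inputs and 54 in the opposite one. Against members, the higher genes were called higher more often (45.0% against 30.0%), but the lower genes were called lower less often (34.8% against 42.0%). Across all 15026 genes tested, members or not, 51.2% of calls were higher. With upper-quartile scaling 65.6% were, and the median of all genes moved from 0.04 to 0.28. With that scaling 51 of the 100 were called higher and 22 lower, and of the 92 lower ones 33 higher and 22 lower. Across the 9127 genes the Spearman correlation of this fold change with the input difference was 0.07 in FPKM and 0.10 in the second table. These are descriptions across genes, which share their libraries.

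The interferon list had the same side between the inputs and between the knockdowns for most of its genes. All 33 members were tested, and 29 were called higher in sh_TDP43 than in sh_SRSF3 with none called lower, beside 30.0% and 42.0% of members. The list's median log2 fold change was 1.58. Of these 29, 24 were also above 0 between the inputs in the second table, a share near that of the whole list (27 of 33). DDX60 stood at 317 and 433 CPM in sh_TDP43, 12.4 and 19.2 in sh_SRSF3 and 167 and 302 in sh_control. It differed between the 2 knockdowns by 4.57 (SE 0.27, edgeR adjusted p = 6.82e-09), the groups far apart. DHX58 stood at 26.7 and 40.0 CPM in sh_TDP43 and 1.98 and 2.02 in sh_SRSF3, IFIT3 at 679 and 1024 and at 107 and 105, and ISG15 at 365 and 517 and at 136 and 154. The sh_control libraries stood at 25.5 and 42.1 CPM for DHX58, 550 and 916 for IFIT3 and 407 and 523 for ISG15. In each of these the sh_SRSF3 libraries were the low ones. Against sh_control, 29 of the 33 were called lower in sh_SRSF3 and none higher, beside 34.6% of members called lower. That comparison shares its sh_SRSF3 libraries with the previous one. In sh_TDP43 against sh_control 4 were called higher and 10 lower, beside 19.2% and 32.5% of members.

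The NF-kB and cytokine list was less even. Of 18 genes, 14 were called higher and 3 lower in sh_TDP43 than in sh_SRSF3, beside 30.0% and 42.0% of members. Of the 14, 11 were above 0 between the inputs by the second table's signal, a share near that of the whole list (15 of 18). All 3 genes called lower were also above 0 there, so within the list calls did not follow the sign between the inputs. In sh_SRSF3 against sh_control 3 were called higher and 13 lower, beside 38.8% and 34.6% of members. In sh_TDP43 against sh_control 2 were called higher and 6 lower, beside 19.2% and 32.5% of members. ICAM1 was at 65.5 and 101 CPM in sh_TDP43, 10.3 and 10.7 in sh_SRSF3 and 13.4 and 34.7 in sh_control, a difference of 2.98 between the knockdowns (SE 0.32, edgeR adjusted p = 1.89e-06). IL6 was at 39.8 and 51.5 CPM in sh_TDP43 and 6.19 and 8.70 in sh_SRSF3. IL24 was at 11.9 and 16.1 against 9.28 and 10.9 CPM (log2 fold change 0.47, edgeR adjusted p = 0.0348), a call that was lost without the first sh_SRSF3 library (adjusted p = 0.183) and without the second sh_TDP43 library (0.342).

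Of the 32 DNA replication genes, 26 were called lower and 3 higher in sh_TDP43 than in sh_SRSF3, against 42.0% and 30.0% of members, and 23 of the 26 were below 0 between the inputs in the second table. PCNA was at 102 and 80.7 CPM in sh_TDP43, 384 and 374 in sh_SRSF3 and 192 and 166 in sh_control. CDC6, which loads the helicase, was at 54.7 and 44.8 CPM in sh_TDP43 against 176 and 162 in sh_SRSF3, although its input difference was -0.43 in FPKM. RFC2 was at 51.8 and 46.3 CPM against 99.7 and 96.9. For these 3 genes the sh_TDP43 libraries were below the sh_SRSF3 ones. PCNA was below sh_control in sh_TDP43 and above it in sh_SRSF3. Against sh_control, 28 of the 32 were called lower in sh_TDP43 and none higher, beside 32.5% and 19.2% of members. In sh_SRSF3 against sh_control 14 were called higher and 10 lower, beside 38.8% and 34.6% of members. The size of a list's difference in the knockdowns did not carry over to the inputs: 22 of 30 genes of the unfolded protein response and ATF4 were called lower in sh_TDP43 than in sh_SRSF3, while the list's input median was -0.03. For the mitochondrially encoded mRNAs it was the other way round, with 1 called higher and 2 lower of 13.

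**Figure D4:**
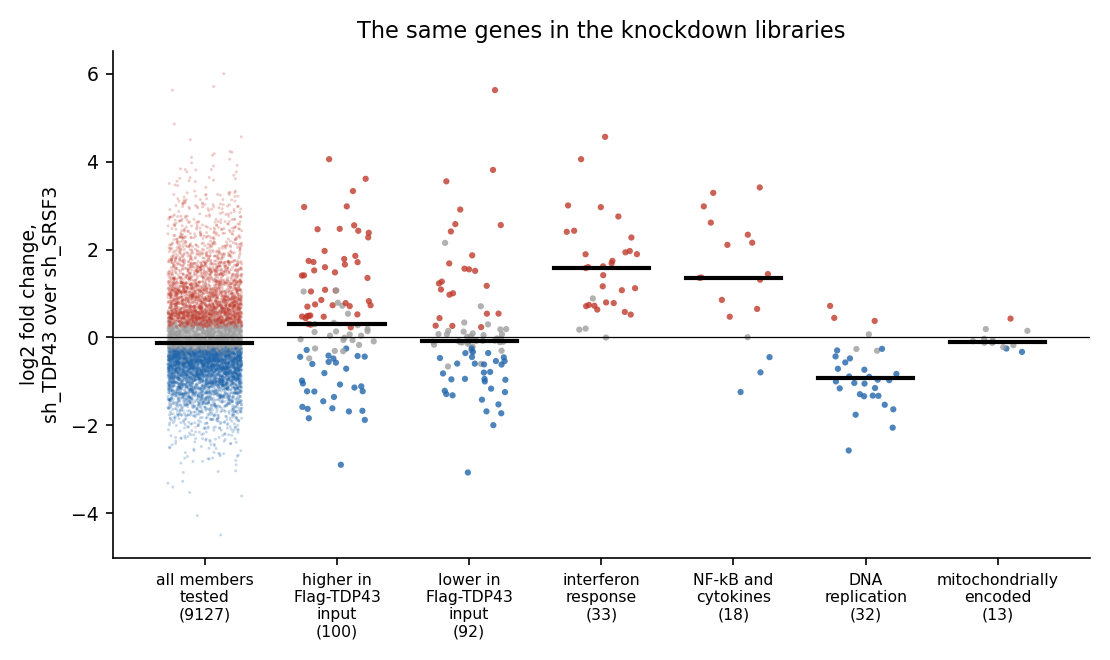
Log2 fold change of sh_TDP43 over sh_SRSF3 for all 9127 members tested, for those past 1.5-fold in both input tables in each direction (100 and 92), and for 4 gene lists; red and blue points were called higher and lower (edgeR adjusted p under 0.05), grey points were not called, and bars are medians. The interferon list has a median of 1.58 with no gene called lower, and the 2 input sets have medians of 0.29 and -0.09.

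Single genes past 1.5-fold in both tables showed each combination. SPNS2, higher in the Flag-TDP43 input, was at 5.48 and 6.04 CPM in sh_TDP43 and 1.65 and 1.69 in sh_SRSF3, and LOXL4 at 49.8 and 44.8 against 21.0 and 23.6. Both were also lower in both knockdowns than in sh_control, where SPNS2 stood at 11.2 and 18.3 CPM and LOXL4 at 137 and 168. TOLLIP, also higher in the Flag-TDP43 input, was at 93.9 CPM in both sh_TDP43 libraries and 236 and 245 in sh_SRSF3, and COPS7A at 55.9 and 57.0 against 118 and 115. These 2 were lower in sh_TDP43, the opposite of the inputs. HDLBP was at 622 and 610 against 793 and 859 CPM (log2 fold change -0.42, edgeR adjusted p = 0.000917), a call lost with upper-quartile scaling (adjusted p = 0.0962).

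Genes lower in the Flag-TDP43 input divided in the same way. KISS1 was at 114 and 124 CPM in sh_TDP43, 11.4 and 9.0 in sh_SRSF3 and 22.5 and 14.8 in sh_control, so it was higher in sh_TDP43 by 3.55 (SE 0.17, edgeR adjusted p = 1.71e-09). TMEM129, an ubiquitin ligase of the endoplasmic reticulum, was at 10.2 and 17.9 FPKM between the inputs and at 17.3 and 18.1 CPM in sh_TDP43 against 2.61 and 2.11 in sh_SRSF3. EDN1 was at 24.5 and 25.1 against 4.96 and 3.49 CPM, and CTGF at 277 and 251 against 136 and 98.6. These 4 were higher in sh_TDP43, where the inputs had them lower with Flag-TDP43. ADM was at 26.9 and 21.95 CPM in sh_TDP43 against 94.5 and 67.5 in sh_SRSF3, the same direction as between the inputs.

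The RNA pulled down from the same cells was set beside the inputs, 1 library a side. Genes lower in the Flag-TDP43 input had a median difference of -0.44 between the Flag-TDP43 and the Flag-SRSF3 pull-down in the second table, with 156 of 237 below 0. Over all members the median was -0.07, with 5395 of 10305 below 0. Genes higher in that input had a median of 0.00, with 88 of 186 above 0 (47.3%), near the 47.4% of all members. MT-CO2 was at 11.4 FPKM in the Flag-TDP43 pull-down and 555 in the Flag-SRSF3 pull-down, a far wider gap than between the inputs. TARDBP was at 80.4 and 1.48 FPKM in the 2 pull-downs.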

How the data were processed

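Groups were read from the sample titles. Per the file headers, the deposited FPKM of the input and pull-down libraries are per gene. A second deposited table holds values for the same libraries, which were treated here as a normalised signal. How the authors made it no label or header says. Per the file headers, the authors deposited raw read counts of the hairpin libraries from featureCounts v1.4.6-p5, with no strand option. Tools in the submitters' processing notes, with no file assigned, are HISAT2 2.0.5, STAR 2.5.2a, Cufflinks and StringTie 1.3.0, with build GRCh37. Columns of the count table that matched no label numbered 2 and were not used, so the combined knockdown was not analysed here.

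Input differences are log2 of (value + 1) ratios among genes at 1 FPKM or more in either input, counted past 1.5-fold; this scale understates the change of low genes. Counts were tested with edgeR 4.0.16 (TMM, filterByExpr, two-sided quasi-likelihood F-test, 6 libraries in 1 fit, Benjamini-Hochberg over 15026 genes, adjusted p under 0.05). On simulated counts of sh_TDP43 against sh_SRSF3 with 14650 genes and 200 changed, the fit recovered 40.2% at 1.5-fold, 85% at 2-fold and 94.8% at 4-fold, plus 8 false calls. The simulation gave all genes the same dispersion and changed genes in sh_TDP43 alone. Far more genes were called in the data, so these rates need not hold there. Count-table IDs matched the input tables for 27044 of 27721. Alternatives were DESeq2 1.42.0, other scalings, no filter, a replicate block and leaving out each library. Inputs were compared by Python 3.11.15 with pandas 2.3.3.

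The rule for named genes took the tagged pair, PARD3 and NUMB at any level, and at 5 FPKM or more the 15 highest and 15 lowest FPKM differences, up to 4 genes of each of 32 lists, and up to 6 for each combination of input and knockdown direction. Genes past 1.5-fold in both tables and full lists were added after the values were seen, and of the rule's genes the text gives those that bear on both tables. The members and lists were chosen with earlier results of these data known.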

Additional observations from a re-analysis of the deposited data

How the results depend on the processing

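The counts between the inputs depend on the table and the threshold. Against 927 higher and 866 lower, the second table gave 465 and 531, a fold of 2 gave 409 and 380, genes at 5 FPKM or more gave 375 and 426, and both tables together gave 186 and 237; a pseudocount of 0.1, median centring, no filter and a minimum of 300 bases of exon stayed within 1.5 times. By the second table, 7 named genes past 1.5-fold in FPKM changed sign: HIST2H3A (-0.39), HIST1H2AC (-4.67), NUMB (0.11), RPS24 (-0.22), NGFRAP1 (-0.025), ARCN1 (-0.061) and ANXA3 (0.031), as did MCM5 (0.34) and RN7SL1 (0.09), which were not past 1.5-fold; the cause was not tested. Of 513 genes past 1.5-fold in FPKM and called the same way in sh_TDP43 against sh_SRSF3, and 470 called the opposite way, the second table gave 301 and 210, a fold of 2 gave 197 and 184, and both tables gave 77 and 54. Genes past 1.5-fold higher in FPKM were called higher in 33.2% and lower in 40.5%. Those past it lower were called higher in 26.8% and lower in 42.4%, near the 30.0% and 42.0% of members.

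Leaving out 1 library at a time gave 4242 to 5155 higher and 4026 to 5013 lower in sh_TDP43 against sh_SRSF3 (5041 and 4801 with all), and 1962 to 3008 higher in sh_TDP43 against sh_control (3105 with all), the lowest without the second sh_TDP43 library. Across 11 alternatives the interferon list had 25 to 30 genes called higher and none called lower. TARDBP in sh_SRSF3 against sh_control lost its call without the first sh_control library (adjusted p = 0.0571). With the replicate block, whose numbers did not pair the libraries (correlations of deviations 0.12, 0.0755 and 0.0879), sh_TDP43 against sh_SRSF3 had 5301 higher and 5112 lower, and 545 and 506 genes lay in the same and the opposite direction as between the inputs. Depth limits low genes: small RNAs under a few FPKM rest on few reads.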

Other observations

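Small noncoding RNAs were grouped by gene symbol, a grouping chosen after the values were seen. Over all members 2.30% were past 1.5-fold lower in both tables and 1.80% higher, the shares to set beside each class below. Of 86 small nucleolar and Cajal body RNAs, 29 were past 1.5-fold lower in both tables and 8 higher, so both directions exceeded those shares. Their medians were -0.46 in FPKM and -0.32 in the second table. SNORA73B was at 17.7 FPKM in the Flag-TDP43 input and 35.3 in the Flag-SRSF3 input. Of 21 genes of the U1 family, the small nuclear RNA that recognises the donor splice site, 9 were lower and 2 higher, with a second-table median of -0.79. The 11 members of the 7SL family had 3 higher and 0 lower (medians 0.41 and 0.15), and the 9 of the 7SK family 2 higher and 0 lower (medians -0.09 and -0.29). RNU12, of the minor spliceosome, was at 7.54 and 14.4 FPKM, RNU4-2 at 4.05 and 6.62 FPKM, RNU5B-1 at 0.919 and 2.92 FPKM, and the vault RNA VTRNA1-1 at 0.133 and 1.32 FPKM. Several are multicopy genes whose reads a quantifier can divide in different ways, so values of single copies are uncertain.

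Among the abundant RNA polymerase III transcripts, RN7SK, which holds the elongation factor P-TEFb inactive, was at 108880 and 115620 FPKM, RN7SL1 of the signal recognition particle at 81970 and 83887 FPKM, and RMRP, of a ribonuclease, at 6799 and 8642 FPKM. Together with RPPH1 they took 49.6% of all FPKM in the Flag-TDP43 input and 50.6% in the Flag-SRSF3 input. In the second table they took 33.7% and 38.3% of the signal. The whole list of 37 small structured RNAs summed to 252300 and 270700 FPKM, but to a signal of 423100 and 346400. Which input held more of such RNA thus depended on the table. Every other value is relative to these abundant RNAs.

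Of 20 mitochondrial tRNAs, 15 were below 0 in both tables, beside 35.4% of all members, with medians of -0.65 and -0.53. Past 1.5-fold in both tables, 9 were lower and 2 higher, beside 2.30% and 1.80% of all members. MT-TN was at 191 and 360 FPKM and MT-TA at 80.1 and 158 FPKM. The 2 higher ones were MT-TL1, at 5.66 and 2.86 FPKM, and MT-TS1, at 1.07 and 0.124 FPKM. Both mitochondrial ribosomal RNAs were below 0 in both tables.

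EEF1G, a subunit of the translation elongation factor 1 complex, and RP11-864I4.1, whose span on chromosome 11 (62559603 to 62591531) overlaps that of EEF1G (62559601 to 62574086), had opposite differences. EEF1G was at 315 and 512 FPKM with a signal of 173 and 903. RP11-864I4.1 was listed at 46.0 and 0 FPKM with a signal of 561 and 15.5. Reads of overlapping genes cannot be told apart where strand and isoform are not known.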
